A study of Mus musculus with 10 samples.

Results

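The cholesterol synthesis genes examined here are 8 genes of the sterol pathway, Hmgcs1, Idi1, Fdps, Fdft1, Sqle, Lss, Cyp51 and Insig1. They were chosen by name, with earlier results of these data known, and matched to the Ensembl identifiers of the deposited mRNA tables. Of the 8 genes, 7 were matched among 22713 identifiers, and Hmgcs1 was matched to none, so its mRNA is not analysed here. They were followed through 8 mRNA libraries of mouse embryonic stem (ES) cells and through 1 Pontin and 1 GFP ChIP library. Pontinf/f; CreER ES cells, in which both Pontin alleles carry a floxed exon 3 and 4-hydroxy tamoxifen (OHT) activates Cre, gave 1 library before OHT (WT), 1 after 3 days (OHT 3D) and 1 after 4 days (OHT 4D), so the cells called WT carry the floxed alleles too. ZHBTc4 ES cells, a single line in which tetracycline (Tc) shuts off the only source of Oct4, gave 1 library after 2 days of Tc (Tc 2D). The same ZHBTc4 line, without Tc, was infected with lentivirus for 4 days and gave 2 libraries with a control shRNA against luciferase and 2 with an shRNA against the lincRNA linc1253. The ChIP libraries were also made from ZHBTc4 cells. All cells grew in serum with leukaemia inhibitory factor, either on fibroblast feeders or without them, and which libraries came from which culture is not given in the sources used here.

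Cells make cholesterol from acetyl-CoA by way of mevalonate, farnesyl diphosphate and squalene, and the first sterol, lanosterol, is then trimmed and reduced to cholesterol. The genes of these enzymes are known targets of SREBP2, a transcription factor that is held in the endoplasmic reticulum by SCAP and INSIG proteins when sterols are plentiful and is released to the nucleus when they are scarce. The same factor drives genes of cholesterol uptake, so synthesis and uptake commonly move together, and Insig1 is itself both a target and a brake of the pathway.

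In the 8 mRNA libraries, between 17187595 and 37951742 reads lay on genes. The first 4 libraries and the 4 shRNA libraries were normalized as separate tables. Pontin, listed as Ruvbl1, had 198 CPM in WT, 33.3 CPM at OHT 3D and 50.9 CPM at OHT 4D, and Oct4, listed as Pou5f1, had 301 CPM in WT and 21.1 CPM at Tc 2D. Ruvbl1 was lower at Tc 2D too, at 85.0 CPM, beside 166 CPM and 186 CPM in the control shRNA libraries. The Tc 2D value rests on 1 library. By immunoblot and quantitative RT-PCR, the study found Pontin not significantly different after Oct4 depletion. All 10 ES cell markers were above 1 CPM in every library, and their summed level was 3518 CPM in WT, 3294 CPM at OHT 3D, 3612 CPM at OHT 4D, 515 CPM at Tc 2D and 5929 to 6647 CPM in the shRNA libraries. A list of 20 fibroblast markers summed to 49.4 CPM in WT, 231 CPM at OHT 3D, 267 CPM at OHT 4D, 72.3 CPM at Tc 2D and 122 to 159 CPM in the shRNA libraries. Of the 17 fibroblast markers expressed in the first table, 16 rose at each OHT time, and Lum and Fap stayed at or below 0.0876 CPM in these libraries. The WT library therefore had the lowest summed fibroblast marker level of all. Gene by gene, Tc 2D was mixed beside WT: of the same 17 markers, 4 rose, 5 fell and 11 lay below WT, with a median log2-fold-change of -0.18. Pdgfrb went from 0.715 CPM in WT to 25.1 CPM in the Tc 2D library, whereas Col1a1 went from 4.20 CPM to 1.34 CPM. The part of these marker differences in the values below was not tested. In bulk RNA, fewer cells of a type and less mRNA per cell cannot be told apart.

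All 7 genes were well expressed in the WT library, from 40.9 CPM for Idi1 to 151 CPM for Fdft1. Levels of different genes can only be set side by side per length, here CPM per kilobase of the exons annotated in NCBIM37. In WT the order on this scale was Fdps at 79.2, Insig1 at 53.8, Fdft1 at 52.7, Cyp51 at 23.8, Sqle at 21.0, Idi1 at 14.3 and Lss at 7.83 CPM per kilobase, where the last rests on 10787 exon bases from 8 annotated transcripts. Over the 4 shRNA libraries, Fdps ranged from 74.3 to 76.4, Insig1 from 28.4 to 30.1, Fdft1 from 20.1 to 24.8, Sqle from 20.6 to 21.8, Cyp51 from 13.0 to 16.2, Idi1 from 11.0 to 15.8 and Lss from 5.37 to 5.71 CPM per kilobase. In that order, Fdft1 overlapped Sqle, and Cyp51 overlapped Idi1, whereas the other neighbours were apart in these libraries. Places in both orders depend on the length used. Sqle was divided by 5546 exon bases from 4 annotated transcripts, whereas its longest protein-coding transcript has 2758 bases. For Lss the longest has 4667 bases. On the shorter length Sqle and Lss would stand higher, so their places and the overlap of Fdft1 with Sqle are not settled. The counts of 4 genes are uncertain, because NCBIM37 holds near-identical copies elsewhere (at least 95% identity over 200 bases or more) and reads could be placed at up to 10 locations. Such copies covered 96.4% of the transcript of Fdps, 86.6% of that of Idi1, 76.7% of that of Insig1 and 56.3% of that of Fdft1, and none was found for Cyp51, Lss or Sqle.

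The summed level of the 7 genes was 735 CPM in WT, 410 CPM at OHT 3D, 496 CPM at OHT 4D, 288 CPM at Tc 2D and 497 to 530 CPM in the 4 shRNA libraries. Once all 8 libraries were put on a common median-ratio scale, WT was the highest library for each of the 7 genes. On the deposited scales it was highest for Insig1, Fdps, Fdft1, Lss and Cyp51, ranked 4 for Sqle and ranked 3 for Idi1. On the common scale, the mean of the control shRNA libraries lay below WT by a log2 difference between -0.16 for Sqle and -1.39 for Fdft1. All falls against WT reported below rest on that 1 library, and no second WT library was there to compare it with.

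**Figure D1:**
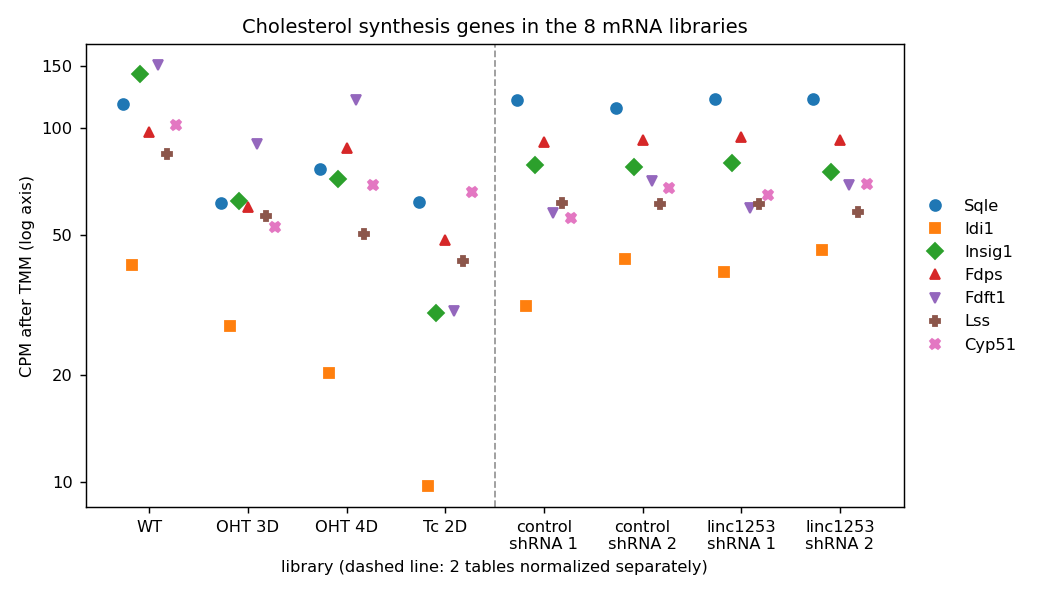
CPM (log axis) of the 7 measured genes in each of the 8 mRNA libraries, 1 point per gene and library, with a dashed line between the tables that were normalized separately. WT is above OHT 3D, OHT 4D and Tc 2D for every gene, Idi1 is lowest in all libraries, falling to 9.73 CPM at Tc 2D, and the 4 shRNA libraries lie close together.

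To ask how the pathway behaved when Pontin was removed, OHT 3D and OHT 4D were compared with WT. At OHT 3D, 5 of the 7 genes fell and none rose, against 5.88% of the 13449 expressed genes that fell and 6.01% that rose by the same rule, a change of more than 0.58 in log2 of CPM plus 1. At OHT 4D, 4 of the 7 fell and none rose, against 8.89% and 6.48%. The median log2-fold-change of the 7 genes was -0.74 at OHT 3D and -0.61 at OHT 4D, and that of all expressed genes was -0.02 and -0.00. Among the 3509 genes with a WT level in the range of these 7, 4.27% fell at OHT 3D and 10.5% at OHT 4D, with medians of -0.04 and -0.06. Each condition was 1 library, so these differences have no replicate check, and the intervals given below cover the counting of reads only. The genes and lists were chosen with earlier results of these data known. The shares set beside them, here and below, are therefore descriptions and no independent test.

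Of the early, mevalonate-side enzymes, Idi1 isomerizes isopentenyl diphosphate and Fdps joins the isoprene units into farnesyl diphosphate. Idi1 (ENSMUSG00000058258, chr13:8884852-8891641, plus strand) had 40.9 CPM in WT, 27.5 CPM at OHT 3D and 20.3 CPM at OHT 4D. The change of -0.56 at OHT 3D on the log2 scale lay just short of the threshold and that of -0.98 at OHT 4D passed it, which makes Idi1 one of the 2 genes, with Lss, that were lower on the later day. Fdps (ENSMUSG00000059743, chr3:88897514-88905881, minus strand) had 97.6 CPM in WT, 59.8 CPM at OHT 3D and 87.8 CPM at OHT 4D. It fell at OHT 3D by 0.70 on the log2 scale, whereas the value of -0.15 at OHT 4D was the smallest among the 7, with a CPM ratio to WT of 0.900 (95% counting interval 0.846 to 0.956).

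Fdft1, or squalene synthase, commits farnesyl diphosphate to sterols, and Sqle, or squalene epoxidase, adds the oxygen that becomes the hydroxyl group of cholesterol. Fdft1 (ENSMUSG00000021273, chr14:63763990-63796630, minus strand) had 151 CPM in WT, 90.0 CPM at OHT 3D and 120 CPM at OHT 4D. It fell at OHT 3D, with a log2-fold-change of -0.74, and the later value was -0.33. Sqle (ENSMUSG00000022351, chr15:59146632-59162747, plus strand) had 117 CPM in WT, 61.6 CPM at OHT 3D and 76.4 CPM at OHT 4D. It fell at both times, with CPM ratios to WT of 0.528 (0.494 to 0.564) and 0.655 (0.616 to 0.696), and its log2-fold-change of -0.61 at OHT 4D was the called value closest to the threshold.

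Lss closes squalene epoxide into lanosterol, and Cyp51 removes a methyl group from lanosterol. Lss (ENSMUSG00000033105, chr10:75994333-76019883, plus strand) had 84.5 CPM in WT, 56.4 CPM at OHT 3D and 50.2 CPM at OHT 4D, which gave log2-fold-changes of -0.57, just short of the threshold, and -0.74. Cyp51 (ENSMUSG00000001467, chr5:4081145-4104746, minus strand) had 102 CPM in WT, 52.4 CPM at OHT 3D and 69.1 CPM at OHT 4D. It fell at OHT 3D with a log2-fold-change of -0.95, and its value of -0.56 at OHT 4D lay just short of the threshold.

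Insig1, the sterol-regulated brake on SREBP release, moved most of the 7 at OHT 3D. Insig1 (ENSMUSG00000045294, chr5:28397952-28405201, plus strand) had 142 CPM in WT, 62.2 CPM at OHT 3D and 71.8 CPM at OHT 4D. It fell at both times, with log2-fold-changes of -1.18 and -0.98 and CPM ratios to WT of 0.437 (0.410 to 0.466) and 0.504 (0.475 to 0.535). From OHT 3D to OHT 4D, 5 of the 7 genes were higher on the later day, by a log2 difference of 0.20 for Insig1 to 0.55 for Fdps, and Lss and Idi1 were lower by -0.17 and -0.42. Fibroblast markers, at 231 CPM and 267 CPM, stood higher than in WT at both times, as given above. Of 15 expressed primitive endoderm markers, 8 rose at OHT 3D and 13 at OHT 4D, their summed level going from 473 CPM in WT to 661 CPM and 872 CPM, and of 12 expressed trophectoderm markers 5 and 6 rose and 2 and 1 fell. Of all expressed genes, 6.01% rose and 5.88% fell at OHT 3D, and 6.48% rose and 8.89% fell at OHT 4D. Of the 10 ES cell markers, 0 fell on the earlier day and 1 on the later, near these shares. The part of these markers in the values of the 7 genes was not tested.

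The remaining enzymes of the pathway were followed as a list of 14 genes. At OHT 3D, 7 of the 14 fell and none rose, with a median log2-fold-change of -0.52, and 13 of the 14 were below WT, where 5.88% of expressed genes fell. The largest falls were those of Msmo1, which removes further methyl groups from the sterol ring, at -1.17, of Dhcr7, which catalyses a last reduction to cholesterol, at -1.06, and of Tm7sf2, a sterol reductase, at -0.84. At OHT 4D, 3 of the 14 fell, among them Dhcr7 (-0.85) and Msmo1 (-0.63, named after its value was seen), and Ebp, a sterol isomerase, rose by 0.75, with a list median of -0.25, where 8.89% of expressed genes fell and 6.48% rose.

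Genes of cholesterol uptake and of SREBP processing were followed beside the enzymes. Of 8 uptake and transport genes, 5 fell at OHT 3D and 3 at OHT 4D, none rose, and the list medians were -0.67 and -0.55, where 5.88% and 8.89% of expressed genes fell. Lrp8, a lipoprotein receptor, fell by 0.98 and then 1.14. Of 9 genes of SREBP processing, 1 fell at OHT 3D, a share near that of all expressed genes, namely Srebf2, which encodes SREBP2, by 0.62, and none fell or rose at OHT 4D, where Srebf2 stood at -0.51. Srebf1, which encodes SREBP1, had log2-fold-changes of -0.25 and -0.13, Scap, the SREBP escort, of 0.56 and 0.48, and Insig2, the INSIG paralogue, of 0.12 and 0.19.

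**Figure D2:**
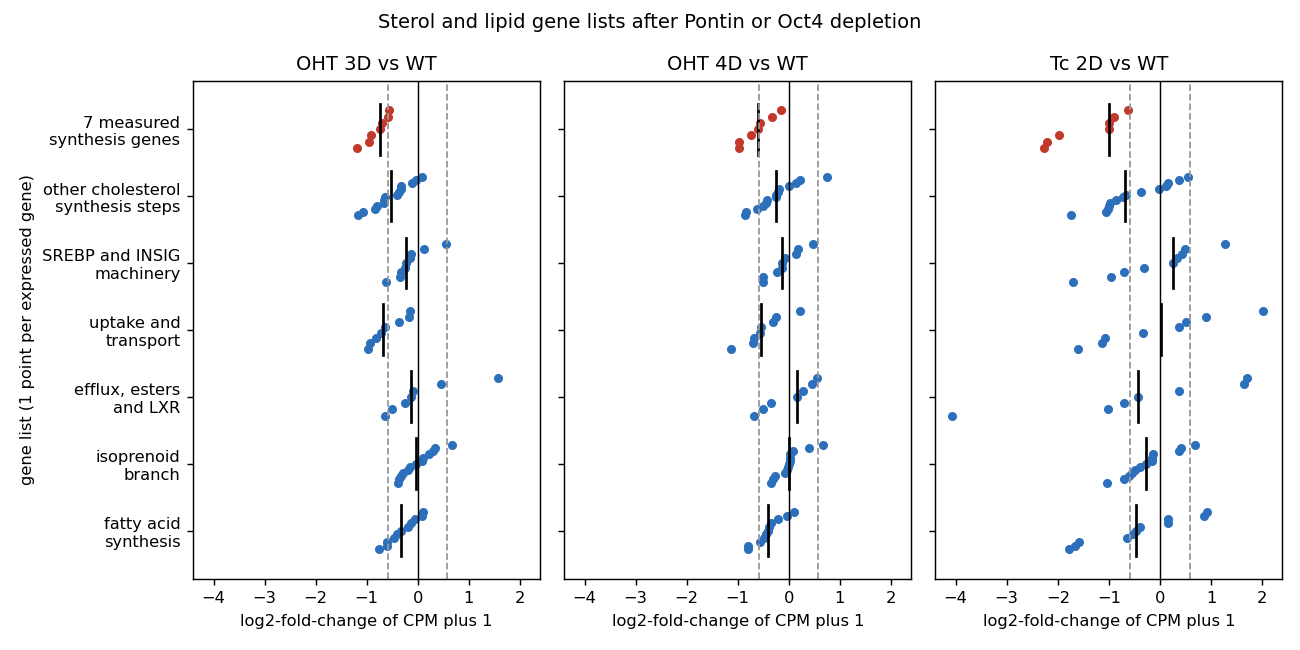
Log2-fold-change of CPM plus 1 against WT at OHT 3D, OHT 4D and Tc 2D (left to right) for every expressed gene of 7 lists, with 1 point per gene, a black bar at each list's median and dashed lines at the threshold of 0.58 in either direction. The 7 measured genes (red) all lie below 0 in the 3 panels, with medians of -0.74, -0.61 and -1.00, whereas the isoprenoid branch is centred at -0.03, -0.00 and -0.28.

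To ask the same of Oct4, Tc 2D was compared with WT, the control that the study used. All 7 genes fell and none rose, but the background was high in this comparison, with 25.8% of expressed genes falling and 23.9% rising, and 31.1% of the 3509 genes of like WT level falling. The median log2-fold-change of the 7 genes was -1.00, against -0.06 for all expressed genes and -0.29 for those of like level. Fdft1 fell most, from 151 CPM in WT to 30.4 CPM at Tc 2D, a ratio of 0.202 (95% counting interval 0.187 to 0.217). Insig1 fell from 142 CPM to 30.0 CPM, a ratio of 0.210 (0.195 to 0.227), and Idi1 from 40.9 CPM to 9.73 CPM, a ratio of 0.238 (0.207 to 0.272). These 3 genes stood apart from the other 4, which kept between 0.494 of the WT level for Fdps and 0.647 for Cyp51. Fdps had 48.2 CPM at Tc 2D, Lss 42.0 CPM, Sqle 62.0 CPM and Cyp51 66.0 CPM, with log2-fold-changes of -1.00, -0.99, -0.90 and -0.62, and the last no longer passed the threshold, at -0.57, when the 4 libraries were rescaled by median ratios. With a stricter threshold of 1 on the log2 scale, 4 of the 7 genes fell at Tc 2D (12.6% of expressed genes), 1 at OHT 3D (0.929%) and 0 at OHT 4D (1.61%), and none of the 7 rose, where 12.8%, 1.9% and 2.38% of expressed genes did.

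The WT library is of another line than ZHBTc4, so in this comparison Oct4 depletion and cell line cannot be told apart. The 2 control shRNA libraries are of the ZHBTc4 line with Oct4 present, although they had been infected and selected and were normalized in the other table. Against their mean on the deposited scale, 5 of the 7 genes fell and none rose, against 28.5% and 18.5% of expressed genes, and the median was -0.92. On the common median-ratio scale, which moved the median of all genes from -0.14 to 0.03, again 5 fell and none rose, against 21.8% and 24.4%, and the median was -0.74. Idi1 fell by 1.64, Insig1 by 1.17, Fdft1 by 0.87, Fdps by 0.74 and Sqle by 0.72 on the common scale. Lss, at -0.35, did not pass the threshold, and Cyp51 changed sign, to 0.29 on the common scale and 0.11 on the deposited one, with 66.0 CPM at Tc 2D beside 55.6 CPM and 67.6 CPM in the controls. For Fdft1 the control libraries, at 57.6 CPM and 71.0 CPM, lay far closer to Tc 2D than the WT library did.

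Among the other 14 enzymes, 8 fell at Tc 2D against WT and none rose, with a median of -0.69, where 25.8% of expressed genes fell. Against the ZHBTc4 controls, 7 fell and none rose on the deposited scale, beside 28.5% of expressed genes falling, and 5 fell and 1 rose on the common scale, beside 21.8% and 24.4%, with a median of -0.44. Nsdhl, a sterol dehydrogenase, fell by 1.75 against WT and by 1.09 against these controls on the deposited scale, and Acat2, which makes acetoacetyl-CoA, by 1.05 and 1.19. Of the 8 uptake genes, 3 fell and 2 rose against WT, beside 25.8% and 23.9% of all expressed genes, and 1 fell and 3 rose against the ZHBTc4 controls on either scale. Mylip, a ligase that marks lipoprotein receptors for degradation, rose by 2.03 against WT and by 1.57 against the controls on the deposited scale. In the SREBP list, Srebf2 fell by 0.70, Mbtps2, a protease that releases SREBP, by 0.96 and Rnf145, a ubiquitin ligase of the endoplasmic reticulum, by 1.71, while Scap rose by 1.28 and Srebf1 and Insig2 had values of 0.25 and 0.33, all against WT. Against the ZHBTc4 controls on the deposited scale, only Rnf145 of the 9 fell, by 1.78, and Scap was 1 of 2 that rose, by 0.92. Srebf2 and Mbtps2 were at -0.22 and -0.23 there, short of the threshold, and Insig2 changed sign, to -0.47. ES cell markers fell in 9 of 10 cases at Tc 2D against WT, and of 12 expressed trophectoderm markers 10 rose and 2 fell, their summed level going from 292 CPM in WT to 654 CPM. Of the 15 primitive endoderm markers, 7 rose and 1 fell, and their summed level was 880 CPM at Tc 2D beside 473 CPM in WT. The part of these marker changes in the sterol genes was not tested.

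The comparisons with WT used a threshold on the log2-fold-change and no test, whereas the knockdown of linc1253 was tested, and none of the 7 genes passed. Their log2-fold-changes in limma ran from -0.04 to 0.19, short of the threshold of 0.58 used against WT. At an adjusted p under 0.05, limma called 0 of the 7 and 0 of 13407 expressed genes (0% up, 0% down, smallest adjusted p of 0.265), and at an unadjusted p under 0.05 it called 0 of the 7, against 3.7% of genes up and 3.75% down. The quasi-likelihood test of edgeR also called 0 genes after adjustment, and 3.71% up and 3.83% down before it, while DESeq2 called 22 genes up and 28 down after adjustment, 0.209% and 0.265% of those with an adjusted p, and 0 of the 7. The level of linc1253 itself is not analysed here. With 2 libraries per group, and with nothing stated on whether they came from separate cultures, p-values measure the spread between these libraries only.

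Sqle had 120.4 CPM and 114 CPM in the control libraries and 121 CPM in both linc1253 shRNA libraries. It was the only 1 of the 7 genes whose groups did not overlap, by less than 1 CPM at their nearest, against 18.8% of expressed genes that lay above both controls and 19.2% below. Its log2-fold-change in limma was 0.04 ± 0.09 (SE, n = 2 and 2, adjusted p = 0.936, 95% interval -0.17 to 0.25). Idi1 had 31.5 CPM and 42.8 CPM in the controls and 39.1 CPM and 45.2 CPM after knockdown. Its groups overlapped, and its difference of 0.19 ± 0.16 (SE, n = 2 and 2, limma adjusted p = 0.816, 95% interval -0.21 to 0.59) was the largest among the 7. In limma without a replicate term, its SE was the largest too.

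Cyp51 had 55.6 CPM and 67.6 CPM in the controls and 64.6 CPM and 69.4 CPM after knockdown, with overlapping groups and a log2-fold-change of 0.13 ± 0.12 (SE, n = 2 and 2, limma adjusted p = 0.843). Fdft1 had 57.6 CPM and 71.0 CPM in the controls and 59.6 CPM and 69.0 CPM after knockdown, so that the spread within each group was far larger than the log2 difference of 0.00 ± 0.13 (SE, n = 2 and 2, limma adjusted p = 0.994). For Idi1, Cyp51 and Fdft1 alike, replicate 1 was the lower library of both groups. Insig1 (78.9 CPM and 77.5 CPM, then 79.7 CPM and 75.1 CPM), Fdps (91.6 CPM and 92.8 CPM, then 94.2 CPM and 92.5 CPM) and Lss (61.6 CPM and 61.0 CPM, then 61.1 CPM and 57.9 CPM) had overlapping groups too. Their log2-fold-changes lay between -0.04 and 0.02, and the 95% intervals of these 3 genes ran from -0.26 at the lowest to 0.22 at the highest. No interval among the 7 reached beyond 0.59 or below -0.32. None of the other 14 enzymes, of the 9 SREBP genes or of the 8 uptake genes passed at an adjusted p under 0.05 in limma without a replicate term. Srebf2 had a log2-fold-change of -0.13, Srebf1 of -0.00, Scap of 0.11 and Insig2 of 0.07.

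**Figure D3:**
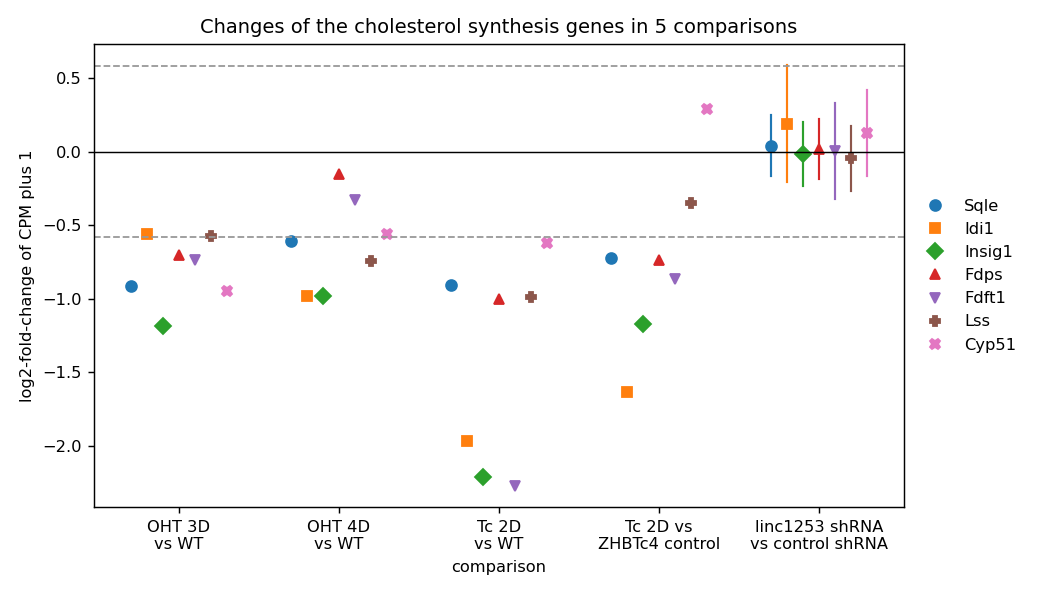
Log2-fold-change of CPM plus 1 of the 7 measured genes in 5 comparisons, 1 point per gene, with dashed lines at 0.58 in either direction and the comparison with the ZHBTc4 control on the common median-ratio scale. Bars on the linc1253 comparison are 95% intervals from limma (2 libraries against 2) and all include 0, whereas the first 4 comparisons rest on 1 depleted library each and have no bars.

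To see whether Pontin ChIP reads were enriched at these genes, reads from 2.5 kb upstream to 500 b downstream of each start site were compared between the Pontin and the GFP library and scaled by library size. Of the 7 promoters, 1 had a log2 ratio above 1, against 14.4% of 21193 promoters, whose median was 0.34. That promoter was the one of Sqle, with 89 Pontin reads, 15 GFP reads and a log2 ratio of 1.32 (95% counting interval 0.53 to 2.22). It had 0.98, short of 1, with scaling by the median ratio over promoters, where 5.78% of promoters exceeded 1. Idi1 (98 and 24 reads), Lss (81 and 21 reads), Cyp51 (92 and 24 reads) and Insig1 (73 and 21 reads) had ratios of 0.78, 0.70, 0.69 and 0.55. Fdps (100 and 55 reads) and Fdft1 (74 and 55 reads) stood below 0, at -0.38 (-0.87 to 0.12) and -0.82 (-1.34 to -0.29), and these were the 2 promoters with the most GFP reads. Pontin reads thus covered a narrow range, from 73 to 100, and GFP reads a wider one, from 15 to 55. With 1 read kept per position and strand the ratio of Fdps turned to 0.27, and in a window of 1 kb to either side it was 0.99, while Fdft1 stood at -0.54 and -0.86. In that window Lss had 1.48 and Sqle 1.02, where 25.4% of promoters exceeded 1. In the 100 b bin centred 150 b downstream of the start site, Fdft1 alone held 1.05 GFP RPM (reads scaled to library size), beside 0.0714 on average over all genes.

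**Figure D4:**
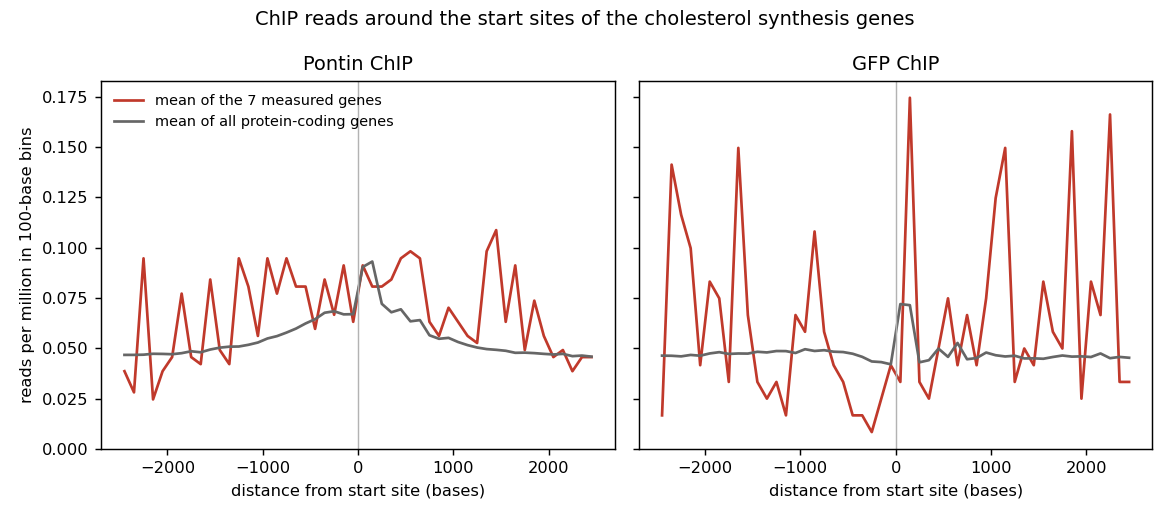
RPM (reads scaled to library size) in 100 b bins up to 2.5 kb either side of the start site for the Pontin (left) and GFP (right) ChIP libraries, as the mean of the 7 measured genes (red) and of all protein-coding genes (grey). The mean of all genes peaks at 0.0931 in the Pontin library and 0.0720 in the GFP library near the start site, while the mean of the 7 genes is ragged in both and reaches 0.109 with Pontin and 0.175 with GFP.

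Of the 8 genes, 5 were matched in the RefSeq promoter table (GRCm38.p6). Sequences are shown for the 4 of them with measured mRNA, since these windows lie within the regions counted by ChIP and the 4 genes moved in 1 direction at Tc 2D against WT. Against the ZHBTc4 controls they did not, since Cyp51 changed sign there, and Lss did not pass the threshold on the common scale. Each sequence runs 5′ to 3′ along the gene from 250 b before to 50 b after the start site that RefSeq gives, and an exact match in NCBIM37 gave the coordinates on the build of the data. These are chr5:4104648-4104947 (minus strand) for Cyp51, chr5:28397702-28398001 (plus strand) for Insig1, chr10:75994100-75994399 (plus strand) for Lss and chr13:8884602-8884901 (plus strand) for Idi1. Capitals mark matches, on either strand, to a sterol regulatory element written loosely as TCACNNCA or closely as TCACNCCAC, which contains the former, and to CCAAT, which is ATTGG when read on the opposite strand and is the core of the site of NF-Y, a known partner of SREBP.
Cyp51: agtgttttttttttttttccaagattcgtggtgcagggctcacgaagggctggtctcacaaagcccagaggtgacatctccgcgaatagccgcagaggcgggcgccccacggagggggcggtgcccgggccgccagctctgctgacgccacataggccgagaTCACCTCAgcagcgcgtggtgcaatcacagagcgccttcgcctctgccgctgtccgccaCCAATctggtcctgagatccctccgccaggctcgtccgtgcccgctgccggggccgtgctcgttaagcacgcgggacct
Insig1: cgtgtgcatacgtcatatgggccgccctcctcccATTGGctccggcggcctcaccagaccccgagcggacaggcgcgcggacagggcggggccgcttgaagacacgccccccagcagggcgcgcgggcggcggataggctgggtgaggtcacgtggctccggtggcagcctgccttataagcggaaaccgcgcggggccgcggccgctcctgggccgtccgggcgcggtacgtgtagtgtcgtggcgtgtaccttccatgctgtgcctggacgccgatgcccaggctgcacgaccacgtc
Lss: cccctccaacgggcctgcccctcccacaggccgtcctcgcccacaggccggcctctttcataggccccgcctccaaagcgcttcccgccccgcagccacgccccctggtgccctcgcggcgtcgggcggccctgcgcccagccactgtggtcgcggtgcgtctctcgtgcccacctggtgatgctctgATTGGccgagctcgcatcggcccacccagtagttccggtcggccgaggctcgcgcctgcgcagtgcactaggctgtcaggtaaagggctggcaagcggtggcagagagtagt
Idi1: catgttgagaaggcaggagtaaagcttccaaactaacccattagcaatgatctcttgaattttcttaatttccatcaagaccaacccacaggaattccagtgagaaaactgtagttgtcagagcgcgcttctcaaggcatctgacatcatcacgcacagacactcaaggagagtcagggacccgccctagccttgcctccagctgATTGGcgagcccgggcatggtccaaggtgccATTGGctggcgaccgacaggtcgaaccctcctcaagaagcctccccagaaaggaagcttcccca
In Cyp51, TCACCTCA lies at -88 and CCAAT at -29 from the start site. No letters matching TCACNNCA were in the windows of Insig1, Lss and Idi1, and CCAAT was found 1 time in Insig1 and in Lss and 2 times in Idi1. The window of Hmgcs1 (chr13:119690101-119690400 in GRCm38.p6) held TCACCCCAC at -137 and 4 matches to CCAAT. Among 32851 promoters of the same table and length, TCACNCCAC was found in 1.24%, TCACNNCA in 13.8%, CCAAT in 37.4% and GGGCGG, the core of an Sp1 site, in 35.7%, and all 5 windows examined held GGGCGG at least 1 time. Such matches are descriptions of the letters only.

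Over the 3 depletion comparisons, which share the WT library, and the linc1253 comparison, the genes outside the list whose 4 log2-fold-changes were most like the median of the 7 genes included Arhgef2, Mical1, Nfasc and Plcg1. Their root-mean-square distances from that median were 0.0751, 0.0946, 0.104 and 0.114 over 9957 genes with a mean of at least 5 CPM in both tables. None of these is an enzyme of cholesterol synthesis. Sqle ranked 3 and Lss ranked 6 by the same distance. That median was taken from these 7 genes, and the value of Sqle at OHT 4D, -0.61, is the median itself. Members near the top were therefore built in by the definition. Insig1, Fdft1 and Idi1 ranked 4640, 4318 and 2326, since their values at Tc 2D were far below the median of -1.00.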

How the data were processed

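mRNA was sequenced from poly(A) RNA of 8 ES cell libraries, and ChIP DNA from 2. For mRNA, the deposited values are CPM, in 2 tables, which the authors made by cutadapt trimming, TopHat alignment to NCBIM37, HTSeq counting per gene and TMM scaling in edgeR. Strandedness is not given in the sources used here. For ChIP, the deposited files list aligned reads (Bowtie2) with a mapping quality score each. All CPM values were whole multiples of 1 read (100% within 0.01 read), so read counts were recovered. WT, OHT 3D, OHT 4D and Tc 2D were compared by log2 of CPM plus 1 among genes above 1 CPM in at least 1 of them, with a call beyond 0.58. The linc1253 knockdown was tested with limma 3.58.1 (trend, Benjamini-Hochberg adjustment), with edgeR 4.0.16 and DESeq2 1.42.0 on recovered reads as alternatives, in R 4.3.3. limma, edgeR and DESeq2 were tested on simulated data. ChIP ratios used 40729076 Pontin and 17185883 GFP reads. Copies were searched with BLAST 2.17.0, and other steps used Python 3.11.15, numpy 2.4.6, pandas 2.3.3 and scipy 1.17.1. Symbols were matched for 22337 of 22713 identifiers. Intervals on CPM ratios and ChIP ratios account for counting error alone, because no molecular identifiers mark which reads are copies of 1 molecule, and intervals from limma rest on the spread between libraries.

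Named genes were the 8 listed genes, the 3 largest changes per list and comparison, and Srebf1, Srebf2, Scap and Insig2 throughout. Some genes that this rule selects are counted in their lists but not reported here by name. The members and lists were chosen with earlier results of these data known, and the common scale for levels and the comparison with genes of like WT level were added after the data were seen. Alternatives were other pseudocounts (0.5 and 3), filters (none, 5 CPM), thresholds, scalings, controls, tools, windows and left-out libraries.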

Additional observations from a re-analysis of the deposited data

How the results depend on the processing

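Under pseudocounts of 0.5 and 3, no filter, a filter at 5 CPM and median-ratio rescaling, 5 of the 7 genes fell at OHT 3D and 4 at OHT 4D, and at Tc 2D 7 fell except for 6 with rescaling, which also called 1 of the other 14 enzymes up. At an absolute log2-fold-change above 1, 1 of the 7 and 2 of the other 14 fell at OHT 3D (0.929% of expressed genes), 0 and 0 at OHT 4D (1.61%), where 0 of the 14 rose (2.38%), and 4 and 4 at Tc 2D (12.6%). With the ZHBTc4 controls on the common scale, the median of the 7 was -0.74 and that of the other 14 was -0.44, with 1 of the 14 rising and 5 falling. Leaving out either control library, chosen after seeing the data, gave medians of -0.75 to -0.72 for the 7 and of -0.49 to -0.43 for the 14, of which 1 rose and 5 fell without replicate 1, and 1 rose on the deposited scale too. Cyp51 changed sign with these controls, to 0.11 and 0.29 with both libraries and to 0.15 to 0.43 without 1 of them on the common scale (0.24 without replicate 2 on the deposited scale). For linc1253, the replicate numbers of 2 pairs marked no stated batch. Deviations of same-numbered libraries correlated at 0.67 over 13407 genes, and limma with the replicate number as block called 1960 genes after adjustment, but 0 of the 7, with 1 of the 7 (Idi1, log2-fold-change 0.19) at an unadjusted p under 0.05, beside 1922 genes up and 2031 down of 13407 by that p. After adjustment it also called 1 SREBP gene up and 1 down, 1 uptake and 1 efflux gene down, and 2 fatty acid genes up and 2 down, none of which the fit without the block called. DESeq2 called 50 genes. Leaving out 1 library at a time gave 0 to 19 calls over all genes (4 without control replicate 2 and 19 without linc1253 shRNA replicate 1, the lone library assumed to vary like the other group) and 0 to 1 of the 7 at an unadjusted p. In ChIP, 0 of the 7 promoters exceeded a log2 ratio of 1 with scaling by the median ratio (5.78% of all promoters), where Sqle was lost, 2 when the window ran 1 kb to either side (25.4%), and 0 of 2 with at least 50 GFP reads, where the median was -0.60, beside 0 of 569 promoters and a median of -0.58. The causes were not tested. The ChIP ratios rest on 15 to 55 GFP reads at each promoter. The filter at 50 GFP reads keeps promoters by the denominator of the ratio, so the low ratios there were built in.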

Other observations

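Branches that leave the sterol pathway, and the synthesis of fatty acids, were followed as lists of their own. Of 13 genes of the isoprenoid branch, which uses farnesyl diphosphate for prenyl groups, ubiquinone and dolichol, none fell at OHT 3D or OHT 4D, when 5.88% and 8.89% of expressed genes fell and 6.01% and 6.48% rose, and 1 rose at each time, Pggt1b, a subunit of a geranylgeranyl transferase, by 0.67 and Dolk, a dolichol kinase, by 0.66 on the log2 scale. At Tc 2D against WT, 3 of the 13 fell and 1 rose, beside 25.8% and 23.9% of expressed genes, with a median of -0.28, and against the ZHBTc4 controls 5 fell on the deposited scale (28.5% of expressed genes), 1 on the common scale (21.8%) and none rose. Fntb, a subunit of farnesyl transferase, fell most against WT, by 1.04. Of 11 genes of fatty acid synthesis and desaturation, 3 fell at OHT 3D and 2 at OHT 4D, none rose, and the medians were -0.32 and -0.41. Acss2, which makes acetyl-CoA from acetate, fell by 0.76 at OHT 3D, Acaca, or acetyl-CoA carboxylase, fell by 0.81 at OHT 4D, and Scd2, a desaturase, fell by 0.61 and 0.79. At Tc 2D, 4 of these 11 fell and 2 rose against WT, and 5 fell and 1 rose against the ZHBTc4 controls on the deposited scale, beside 28.5% and 18.5% of expressed genes, and 3 fell and 2 rose on the common one, beside 21.8% and 24.4%, with falls against WT of 1.78 for Acly, 1.65 for Fasn and 1.59 for Elovl6, which are enzymes of the fatty acid chain and its supply of acetyl-CoA.

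Cholesterol efflux and ester formation were followed in a list of 9 genes, of which 7 were expressed. Abca1, which exports cholesterol and is a known target of LXR, rose by 1.57 at OHT 3D and by 1.70 at Tc 2D against WT (0.57, short of the threshold, against the ZHBTc4 controls on the deposited scale and 0.76 on the common one) and had a log2-fold-change of 0.45 at OHT 4D. Abcg1, another exporter of cholesterol and LXR target, had -0.51 at OHT 3D, fell by 0.68 at OHT 4D and fell by 1.02 at Tc 2D against WT, but stood at 0.01 and 0.19 against the ZHBTc4 controls on the deposited and common scales. Soat1, which forms cholesterol esters, fell by 0.64 at OHT 3D. Apoe, the apolipoprotein E gene, fell by 4.07 at Tc 2D against WT and by 3.29 against these controls on the deposited scale, whereas Nr1h3, which encodes an LXR, rose by 1.65 and by 0.78. Nr1h3 was near the floor in WT, with 11 reads there and 104 at Tc 2D. Its CPM ratio to WT was 7.45 (95% counting interval 4.00 to 15.4), so the value of 1.65 depends on the 1 added to CPM. In this list 1 gene rose and 1 fell at OHT 3D, 0 and 1 at OHT 4D, and 2 and 3 at Tc 2D, counts to be read beside the shares of all expressed genes given above. After linc1253 knockdown none of these genes passed at an adjusted p under 0.05 in limma without a replicate term. The lowest unadjusted p among all sterol and lipid lists belonged to Scd2, with a log2-fold-change of -0.44 (limma adjusted p = 0.562, 2 libraries against 2).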
